A study of Homo sapiens with 4 samples.

Results

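The T cell receptor loci were examined for SMAR1 peaks in a human colorectal carcinoma cell line, HCT116. Their members are the 207 gene segments, of 64486 annotated genes, that GENCODE release 44 mapped to hg19 types as T cell receptor segments or pseudogenes on chromosome 14 (TRA and TRD) and chromosome 7 (TRB and TRG). A peak was counted when its centre lay between the first and the last segment of a locus or within 50 kb of either end. By this rule 8 of 13926 peaks were found, all 8 in HCT116 p53-/- and 0 in HCT116 p53+/+. The cells with p53 (HCT116 p53+/+) and those lacking it (HCT116 p53-/-) made up the 2 groups, both without a treatment in the labels. Each group gave 1 anti-SMAR1 ChIP-seq library, so no difference between the 2 libraries has a replicate check. Peaks had been called for each library separately, with 5709 peaks listed for HCT116 p53+/+ cells and 8217 peaks for HCT116 p53-/- cells. The IgG libraries of the same cells are not analysed here. The peak lists hold no reads, so depth could not be read from them. By the study's methods the HCT116 p53-/- library had more reads, and depth and p53 status cannot be told apart in what follows.

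T cell receptor chains are built in developing T cells by V(D)J recombination, in which 1 variable (V), sometimes 1 diversity (D) and 1 joining (J) segment are cut beside recombination signal sequences and joined upstream of a constant (C) gene. TRA encodes the alpha chain, TRB the beta chain, TRG the gamma chain and TRD the delta chain, and the TRD segments lie inside TRA. A V segment has a leader exon, a short intron and the V exon. SMAR1 is a nuclear matrix protein that was first described in mouse thymocytes by its binding to matrix attachment sequence beside the TRB enhancer. HCT116 is of epithelial origin, a kind of cell in which V(D)J recombination is not active. Neither gene expression nor protein is in the peak lists.

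The sequences of the 8 peaks are shown first because nearly all of them turn on 1 feature, the T(C/G) repeat. T(C/G) repeats are the sequence in which the study was interested. A run is taken here as uninterrupted TC or TG dinucleotides, on either strand, of at least 12 bp. Each peak is given 5′ to 3′ on the plus strand of hg19, with the runs in capitals. The letters are those of the reference, not of the cells.
TRA/TRD, near TRAV1-2, chr14:22122962-22122997: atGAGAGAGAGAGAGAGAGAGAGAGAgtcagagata
TRA/TRD, near TRAV13-1, chr14:22333983-22334105: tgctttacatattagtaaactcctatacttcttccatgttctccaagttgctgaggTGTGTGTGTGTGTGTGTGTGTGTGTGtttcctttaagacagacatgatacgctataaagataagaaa
TRA/TRD, near TRAV20, chr14:22502092-22502139: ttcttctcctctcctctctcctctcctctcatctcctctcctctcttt
TRA/TRD, near TRAV21, chr14:22520543-22520683: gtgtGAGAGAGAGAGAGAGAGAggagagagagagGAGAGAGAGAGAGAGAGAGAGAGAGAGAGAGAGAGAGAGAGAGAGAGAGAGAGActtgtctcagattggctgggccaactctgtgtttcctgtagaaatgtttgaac
TRB, in TRBV7-1, chr7:142032108-142032195: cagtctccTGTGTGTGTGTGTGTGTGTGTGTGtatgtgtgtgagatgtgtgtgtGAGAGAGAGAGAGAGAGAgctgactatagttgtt
TRG flank, in STARD3NL, chr7:38256045-38256105: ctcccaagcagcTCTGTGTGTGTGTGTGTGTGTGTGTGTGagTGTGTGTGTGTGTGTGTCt
TRG flank, AMPH intron, stronger peak, chr7:38430557-38430617: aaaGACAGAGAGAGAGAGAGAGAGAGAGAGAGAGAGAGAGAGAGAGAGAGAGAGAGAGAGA
TRG flank, AMPH intron, weaker peak, chr7:38446308-38446382: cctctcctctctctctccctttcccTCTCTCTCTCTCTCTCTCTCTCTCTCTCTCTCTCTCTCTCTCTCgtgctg

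A run of at least 12 bp lay in 7 of the 8 peaks, beside 76.0% of the HCT116 p53-/- peaks whose sequence is complete in hg19. A pure (TC)n run of that length, read as GA on the other strand, lay in 5 of the 8 peaks (50.9% of the list). A pure (TG)n run lay in 3 (27.6% of the list). The share of a peak that lay under its runs ranged from 0% near TRAV20 to 95.1% in the stronger AMPH peak. Repeat content was thus a property that most of these peaks had and that most of the list had too.

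**Figure D1:**
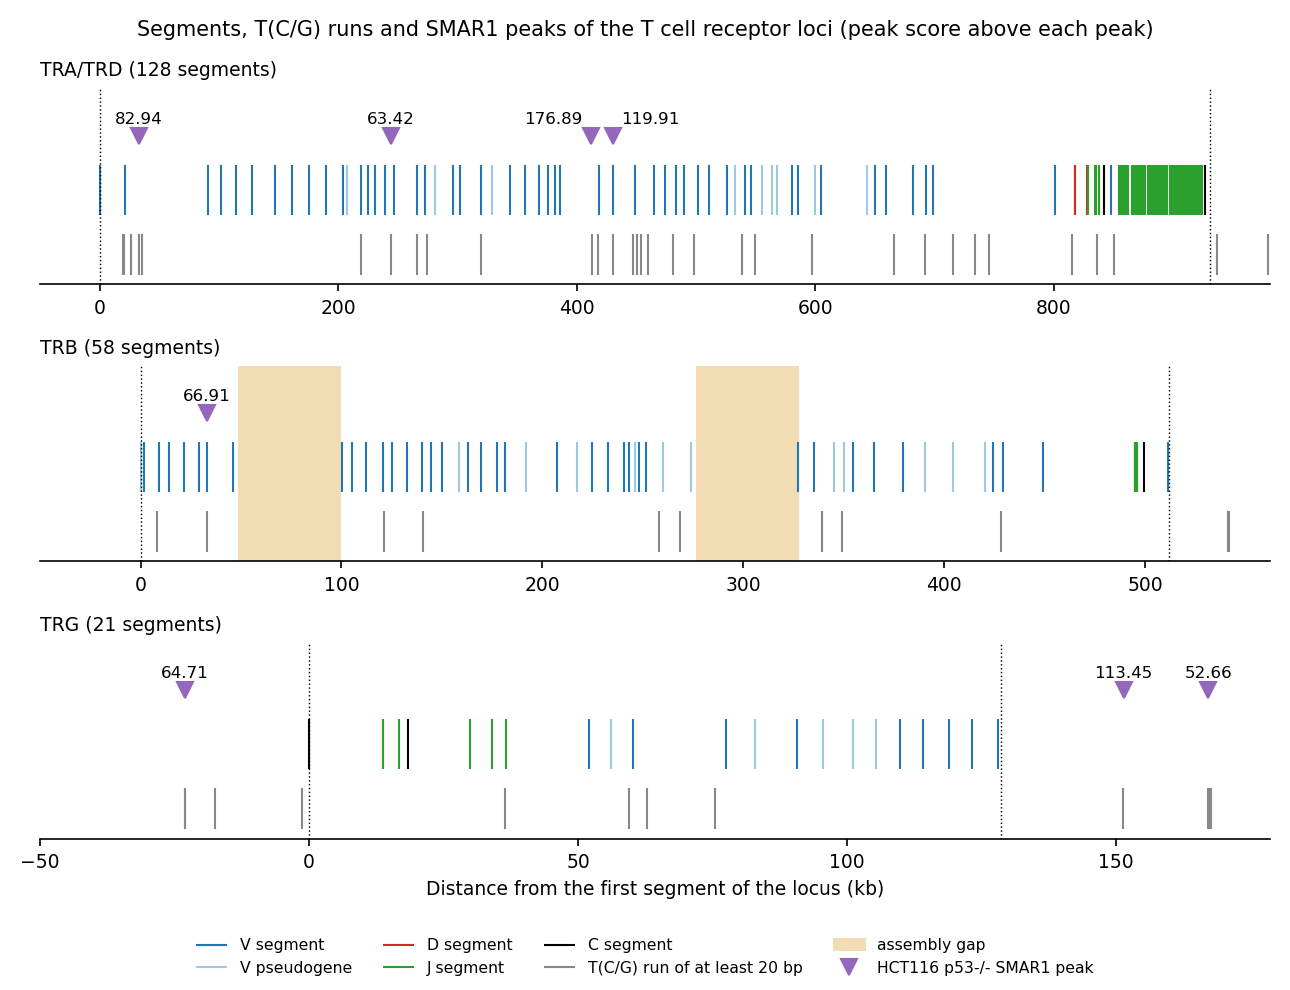
Segments (upper ticks, coloured by kind, with J pseudogenes drawn as J), T(C/G) runs of at least 20 bp (lower grey ticks) and HCT116 p53-/- SMAR1 peaks (triangles with their MACS score) along each T cell receptor locus, by distance in kb from the first segment. Dotted lines mark the first and last segment, and the TRB panel shows 2 gaps of the assembly. The 5 peaks inside the loci lie among V segments, the 3 TRG peaks lie outside the segments, and no HCT116 p53+/+ peak falls in any panel.

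The TRA/TRD locus held 128 segments over 931 kb and 4 HCT116 p53-/- peaks, all of them in the part that carries V segments. The peak with the highest score of the 8 (176.89) lay 6.73 kb upstream of TRAV20, an alpha chain V segment, with TRAV19 25.7 kb away on the other side. It was the one peak without a run of 12 bp. Its 48 bp were a pyrimidine stretch of short CT blocks broken by extra C or T and by a single A, in which the longest T(C/G) run was 6 bp and the longest unbroken pyrimidine run was 30 bp. The 31 bases at its centre occurred once in hg19, counting exact matches alone. How reads aligned over the whole peak was not examined.

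The peak upstream of TRAV21 scored 119.91. It ended with 89 bases between it and the segment, the shortest distance of a peak outside a segment to the segment itself. The peak held a run of 54 bp and another of 18 bp, and the 31 bases at its centre occurred 22295 times in hg19. How reads with several matching places were treated before peak calling is not given in the sources used here. TRAV20, the next segment on the other side, was 11.1 kb away.

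The other TRA/TRD peaks scored lower. The peak at 63.42 lay 2.98 kb upstream of TRAV13-1 and 3.80 kb beyond the end of a V segment that the annotation lists only as ENSG00000289723. It held a (TG)n run of 26 bp in sequence that was otherwise not repetitive, and its centre occurred once in hg19. The peak at 82.94 lay 11.2 kb beyond TRAV1-2 and 57.5 kb before TRAV2, in an intron of OR4E2. OR4E2 encodes an olfactory receptor and lies inside the alpha locus, and the centre of the peak was 928 bp downstream of its TSS. That peak was 36 bp long with a (GA)n run of 24 bp, and its centre occurred 6 times.

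The TRB locus held 58 segments over 512 kb and 1 peak, at chr7:142032108-142032195 with a score of 66.91. It lay inside TRBV7-1, a beta chain V segment on the plus strand, in the intron between the leader exon (142032006 to 142032087) and the V exon (142032230 to 142032527). There were 20 bases between the leader exon and the peak, and 34 bases between the peak and the V exon. The peak therefore lay wholly within an intron of 142 bp. It held a (TG)n run of 24 bp followed by a (GA)n run of 18 bp, and its centre occurred once. The next segments were TRBV6-1, 3.50 kb away, and TRBV4-2, 13.1 kb away. In hg19 this locus holds 2 assembly gaps of 50 kb (142048196 to 142098195 and 142276198 to 142326197), the first of which starts 16.0 kb beyond the peak. All 26 segments between the gaps are annotated on the minus strand, against 0 of 8 before and 1 of 24 after them, and any segment within the gaps was not analysed here.

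The TRG locus held 21 segments over 129 kb and no peak among them. The 3 peaks counted for it lay in the 50-kb flanks, in genes that are not receptor segments. The peak at 64.71 lay 23.1 kb beyond TRGC2, a gamma chain constant gene, within STARD3NL, which encodes an endosomal membrane protein. It was in an intron of the coding transcripts of STARD3NL and in an exon of a retained-intron transcript, and it held (TG)n-rich runs of 28 and 18 bp. On the other side, 2 peaks lay in introns of AMPH, the gene for amphiphysin, at 22.8 and 38.5 kb from TRGV1. Their scores were 113.45 and 52.66, their longest runs 58 and 44 bp, and their centres occurred 20988 and 297 times. All 3 flank peaks thus held long runs with repeated centres, as the centre of the STARD3NL peak occurred 140 times.

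Among the 8 peaks the score ranged from 52.66 to 176.89, with a median of 74.9, beside a median of 73.93 over the whole HCT116 p53-/- list. Of the 8, 4 were at or above the list median. The score, which MACS computes from a p-value (-10 log10), grows with depth and was read within the list only. The peaks near TRAV20 and TRAV21 scored at least as high as 93.7% and 86.8% of their list, the stronger AMPH peak as 84.0% and the peak in OR4E2 as 67.1%. The peaks in TRBV7-1, STARD3NL and near TRAV13-1 reached 41.1%, 31.5% and 29.1%, and the weaker AMPH peak 6.63%. For 5 of the 8, the central 31 bases had further copies in hg19, beside 53.4% of the list. The 3 with a unique centre (near TRAV20, near TRAV13-1 and in TRBV7-1) all lay in V parts.

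**Figure D2:**
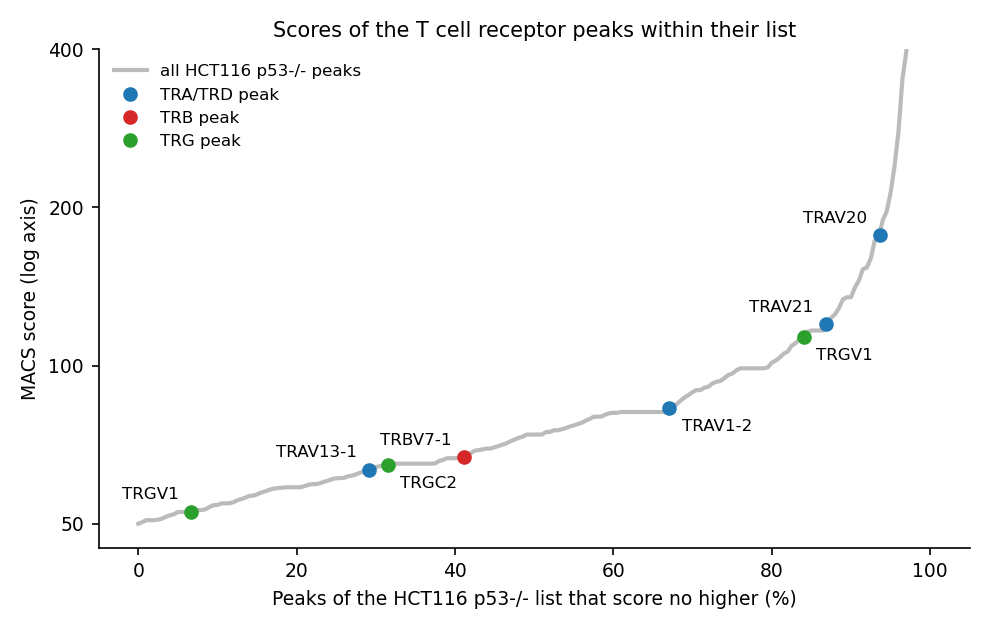
MACS score (log axis) of the 8 T cell receptor peaks against the percent of the HCT116 p53-/- list that scores no higher, coloured by locus and named by the nearest segment; the grey line is the whole list. The peaks spread from 6.63% to 93.7% of the list, with 4 at or above its median score of 73.93.

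None of the 8 peaks shared a base with an HCT116 p53+/+ peak, which follows from the lack of peaks of that list in the windows. Over the whole lists, 13.5% of HCT116 p53-/- peaks and 20.2% of HCT116 p53+/+ peaks did so, so that sharing was uncommon everywhere. The nearest HCT116 p53+/+ peak was between 71.1 and 610 kb from each of the 8. In HCT116 p53+/+ the nearest peak before TRA/TRD was in CHD8, 129 kb from the edge of the window, and an HCT116 p53-/- peak shared bases with it. Just outside the rule, an HCT116 p53-/- peak in AMPH (score 51.81) was 146 bp beyond the TRG window, and an HCT116 p53+/+ peak with a score of 130.47 and a (TC)n run of 32 bp was 44.2 kb before it.

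Over the 1.77 Mb of assembled sequence in the 3 windows, HCT116 p53-/- had 4.52 peaks per Mb (exact 95% Poisson interval 1.95 to 8.90) and HCT116 p53+/+ had 0 (0 to 2.08). Intervals here and below cover counting error only. All chromosomes had 2.87 and 1.96 peaks per Mb, and both values lie within the intervals of the T cell receptor loci. At this number of peaks, neither density could therefore be told from that of the genome. The TRA/TRD window alone (1.03 Mb) held 4 HCT116 p53-/- peaks and no HCT116 p53+/+ peak. Beside that window, among 2810 bins of 1 Mb, 18.3% held no HCT116 p53+/+ peak, 32.0% held at least 4 HCT116 p53-/- peaks and 4.06% held both features.

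By locus, HCT116 p53-/- had 3.88 peaks per Mb in TRA/TRD (1.06 to 9.93), 1.95 in TRB (0.0494 to 10.9) and 13.1 in TRG (2.71 to 38.4). The immunoglobulin loci IGH, IGK and IGL, which are built of the same kinds of segments and rearrange in B cells, were cut in the same way. They held 4.87 HCT116 p53-/- peaks per Mb (2.78 to 7.91) and 4.26 HCT116 p53+/+ peaks per Mb (2.33 to 7.15), from 16 and 14 peaks. The intervals of the T cell receptor and immunoglobulin loci overlapped in HCT116 p53-/- and did not overlap in HCT116 p53+/+. The HCT116 p53+/+ peaks of the immunoglobulin loci were unevenly spread, with 9 of the 14 in IGK, where HCT116 p53-/- had 0. Taken alone, the HCT116 p53+/+ intervals of IGH (0.847 to 7.96) and IGL (0.0257 to 5.66) did overlap that of the T cell receptor loci.

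**Figure D3:**
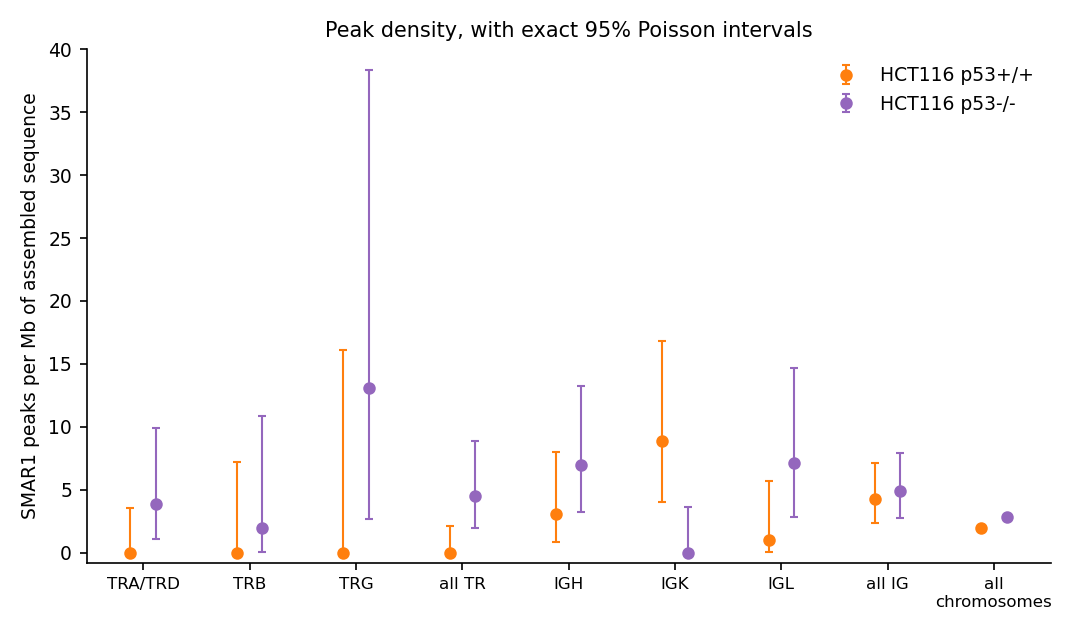
SMAR1 peaks per Mb of assembled sequence (points, with exact 95% Poisson intervals as bars) in each T cell receptor (TR) and immunoglobulin (IG) locus and on all chromosomes, for the 1 library of each cell line. The HCT116 p53+/+ points of the 3 T cell receptor loci are all 0, and the HCT116 p53-/- point of TRG, 13.1, has the widest interval.

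The study called a gene with a peak within 5 kb upstream of its start a downstream target. By that measure 2 of the 207 segments, TRAV13-1 and TRAV21, were downstream of an HCT116 p53-/- peak (0.966%, exact 95% binomial interval 0.117 to 3.45%), beside 2.52% of all genes. In HCT116 p53+/+ 0 of 207 were (0 to 1.77%, where 3 counts of the 207 would be 1.45%), and the 1.55% of all genes lies within that interval. This 0 follows from the lack of HCT116 p53+/+ peaks in the windows and is not a separate result. Within 5 kb on either side of the start, 5 segments had an HCT116 p53-/- peak (2.42%, 0.789 to 5.55%), beside 4.47% of all genes and 4.08% of the immunoglobulin segments. These were TRAV13-1, TRAV21, TRBV7-1, TRBV6-1 and ENSG00000289723, and all 5 are V segments. None of the 26 V pseudogenes, 4 D segments, 73 J segments, 5 J pseudogenes or 5 C genes had one. From the start of a segment to the centre of the nearest HCT116 p53-/- peak, the median distance was 174 kb (0.145 to 387 kb). To the nearest HCT116 p53+/+ peak it was 658 kb (104 to 997 kb).

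The constant genes and the stretches that join to them held no peak in either library. Along chromosome 14, the part with D, J and C segments (114 kb) was 278 kb from the nearest HCT116 p53-/- peak and 883 kb from the nearest HCT116 p53+/+ peak. TRAC and TRDC, the alpha and delta chain constant genes, were 278 and 364 kb from an HCT116 p53-/- peak. In TRB, the stretch of 9.84 kb between TRBC2 and TRBV30, where the human TRB enhancer lies, held 0 peaks, and the nearest HCT116 p53-/- and HCT116 p53+/+ peaks were 157 and 592 kb away. In TRG, TRGC1 and TRGC2 were 41.4 and 23.1 kb from an HCT116 p53-/- peak. TRBC1 is not among the segments of the annotation used here. All 5 peaks inside the loci thus lay among V segments, the parts that take up most of the TRA/TRD and TRB loci.

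The loci held many T(C/G) runs without a peak. The 3 windows had 252 runs of at least 12 bp, and 11 of them lay under an HCT116 p53-/- peak (4.37%, exact 95% binomial interval 2.20 to 7.68%), beside 2.86% of such runs on all chromosomes. In HCT116 p53+/+ it was 0 of 252 (0 to 1.45%, where 3 counts of the 252 would be 1.19%), beside 1.55% on all chromosomes. This 0 was fixed by the lack of any HCT116 p53+/+ peak in the windows, so it adds nothing to the density given above. A run was counted as under a peak if any of its bases were, so runs that cross the edge of a peak are included. Runs can lie together under 1 peak, as the 11 runs overlapped 7 peaks, so they are not independent and the intervals are too narrow. Among runs of at least 20 bp, 8 of 59 lay under an HCT116 p53-/- peak (13.6%, 6.04 to 25.0%). The 6.15% on all chromosomes lies within that interval. By locus it was 3 of 34 in TRA/TRD, 1 of 12 in TRB and 4 of 13 in TRG, where all peaks lay in the flanks.

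**Figure D4:**
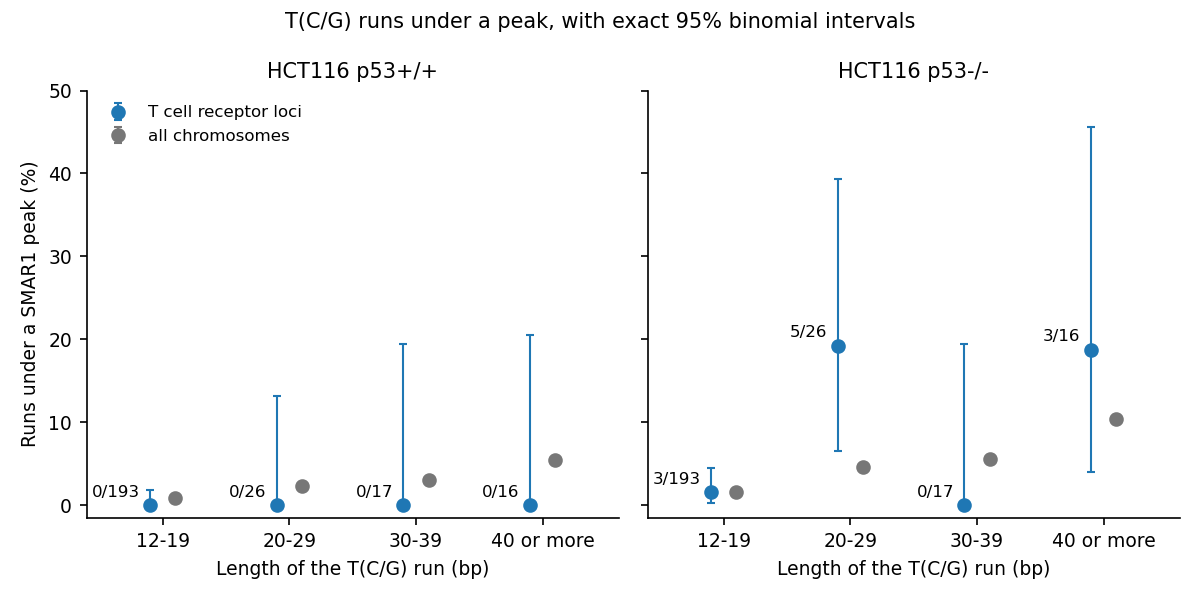
Percent of T(C/G) runs under a SMAR1 peak by run length in bp, in the T cell receptor windows (blue, with counts) and on all chromosomes (grey), for the 1 library of each cell line; bars are exact 95% binomial intervals. In HCT116 p53-/- the windows have 3 of 193, 5 of 26, 0 of 17 and 3 of 16 runs under a peak from the shortest to the longest class. In HCT116 p53+/+, with no peak in the windows, the count is 0 in every class.

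The share of runs under a peak differed by the kind of run. Of runs of at least 20 bp that were pure (TC)n, 19.1% on all chromosomes lay under an HCT116 p53-/- peak, and in the T cell receptor windows it was 3 of 7 (42.9%, exact 95% binomial interval 9.90 to 81.6%). Of pure (TG)n runs of that length, it was 2.47% on all chromosomes and 2 of 32 in the windows (6.25%, 0.766 to 20.8%). The window values rest on 5 runs under a peak, and each interval holds the value of all chromosomes. All 19 pure (TG)n runs of at least 30 bp in the windows were without a peak, beside 3.35% under a peak on all chromosomes, and both pure (TC)n runs of that length, near TRAV21 and in AMPH, were under one (15.8 to 100%), beside 30.5% on all chromosomes.

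Of the 16 runs of 40 bp or more in the windows, 13 had no peak. Shown here are the longest of them, 68 bp and 3.32 kb upstream of TRAV26-1, and one of 48 bp that lay 751 bp upstream of TRAV20, between that segment and the peak with the highest score. They are given on the plus strand of hg19 with 10 bases on each side, with the run in capitals.
Upstream of TRAV20, chr14:22508032-22508099: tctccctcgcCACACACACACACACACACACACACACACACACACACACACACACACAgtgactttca
Upstream of TRAV26-1, chr14:22587880-22587967: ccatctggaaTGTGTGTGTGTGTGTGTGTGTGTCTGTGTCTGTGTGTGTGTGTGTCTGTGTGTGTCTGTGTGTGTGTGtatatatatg
The run upstream of TRAV20 is pure (TG)n, read as CA on the plus strand, and that upstream of TRAV26-1 is (TG)n broken by TC dinucleotides. The runs at TRAV21 and in AMPH are (TC)n or mostly (TC)n. Among shorter runs, pure (TG)n runs lay under the peaks near TRAV13-1 and in TRBV7-1, and a pure (TC)n run of 26 bp in the TRG window had no peak. Whether the kind of run bears on a peak was not tested.

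Long runs also lay close to some segments that had no peak. Of the 207 segments, 5 (2.42%, beside 3.13% of all genes) had a run of at least 20 bp within 1 kb upstream: TRAV1-2, TRAV12-1, TRAV12-2, TRAV20 and TRAV21. Of these 5, TRAV21 had an HCT116 p53-/- peak there, beside 6.70% of all genes with such a run. The (TG)n runs next to TRAV12-1 and TRAV12-2, 48 and 40 bp long, ended 219 and 102 bp before their segments and had no peak in either library. Within 5 kb upstream, 23 segments had such a run (11.1%, beside 14.3% of all genes), and 2 of them had an HCT116 p53-/- peak (8.70%), beside 7.06% of all genes with such a run.

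The run in the TRBV7-1 intron had counterparts across its subfamily, which was looked at after the peak had been seen. Leader introns could be read for 102 V segments and pseudogenes with exactly 2 annotated exons, and they had a median length of 140 bp (88 to 459 bp). All 6 TRBV7 segments among them held a run of at least 12 bp, whereas 2 of the other 96 did (TRAV6 and TRAV9-2). TRBV7-3 does not have exactly 2 annotated exons and is not among the 102. Runs of 18 and 12 bp lay within that segment, and neither was under a peak of either library. The introns of the 6 TRBV7 segments are shown 5′ to 3′ on the strand of each segment, with the runs in capitals. TRBV7-1 is on the plus strand of hg19 and the others are on the minus strand, and TRBV7-5 is a pseudogene.
TRBV7-1, chr7:142032088-142032229: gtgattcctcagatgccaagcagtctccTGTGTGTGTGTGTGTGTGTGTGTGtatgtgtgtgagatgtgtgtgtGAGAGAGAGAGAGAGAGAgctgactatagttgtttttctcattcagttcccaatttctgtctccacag
TRBV7-4, chr7:142176627-142176741: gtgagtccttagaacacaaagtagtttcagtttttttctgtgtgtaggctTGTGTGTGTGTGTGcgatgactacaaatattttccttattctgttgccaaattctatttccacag
TRBV7-5, chr7:142157674-142157800: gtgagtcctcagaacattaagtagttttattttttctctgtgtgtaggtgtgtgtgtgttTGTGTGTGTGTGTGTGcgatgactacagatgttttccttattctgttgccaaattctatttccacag
TRBV7-6, chr7:142139576-142139721: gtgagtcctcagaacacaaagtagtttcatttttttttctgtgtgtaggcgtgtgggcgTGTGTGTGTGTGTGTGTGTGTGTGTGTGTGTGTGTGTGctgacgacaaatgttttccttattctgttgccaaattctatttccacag
TRBV7-7, chr7:142120118-142120272: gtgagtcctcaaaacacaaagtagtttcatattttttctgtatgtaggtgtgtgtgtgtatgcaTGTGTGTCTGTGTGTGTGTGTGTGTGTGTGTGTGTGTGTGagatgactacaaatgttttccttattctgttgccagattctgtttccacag
TRBV7-8, chr7:142099753-142099889: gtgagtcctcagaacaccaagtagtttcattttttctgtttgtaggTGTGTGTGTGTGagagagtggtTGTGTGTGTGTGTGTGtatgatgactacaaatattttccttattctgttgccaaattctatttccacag
The longest run was 14 bp in TRBV7-4, 16 bp in TRBV7-5 and TRBV7-8, 24 bp in TRBV7-1, 38 bp in TRBV7-6 and 40 bp in TRBV7-7. Of the 6, TRBV7-1 was under an HCT116 p53-/- peak, although the runs in TRBV7-6 and TRBV7-7 were longer. TRBV7-1 differed from the other 5 in its second run, which was (GA)n of 18 bp, as every run of the others was (TG)n or mostly (TG)n. Whether this second run bears on the peak was not tested. Outside the subfamily, the leader intron of TRAV9-2 held a pure (TC)n run of 22 bp and had no peak in either library. In hg19 coordinates, the 5 other TRBV7 introns shown were between 67.7 and 145 kb from the nearest HCT116 p53-/- peak. These distances include the first assembly gap of 50 kb and depend on how the assembly places that stretch. In HCT116 p53+/+ 0 of the 102 leader introns were under a peak (exact 95% binomial interval 0 to 3.55%, where 3 counts would be 2.94%). That, too, was fixed by the lack of HCT116 p53+/+ peaks in the windows.

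**Figure D5:**
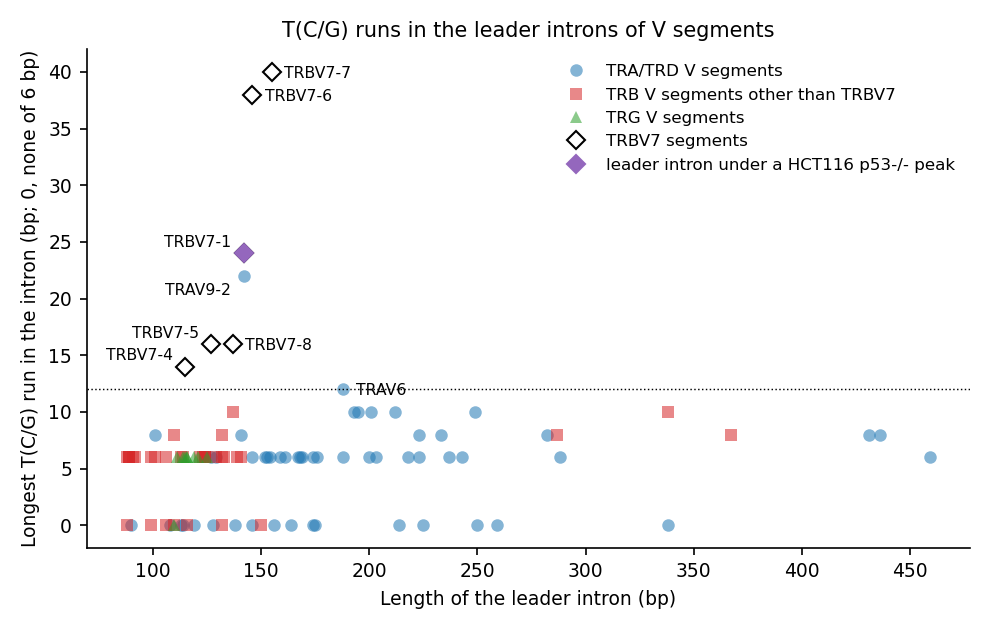
Length of the longest T(C/G) run in bp (0 where no run reached 6 bp) against the length of the leader intron in bp, for 102 V segments and pseudogenes of the 3 loci. The 6 TRBV7 segments among them (diamonds, without TRBV7-3) lie above the dotted line at 12 bp. The filled diamond, TRBV7-1 with a run of 24 bp, is the intron under an HCT116 p53-/- peak.

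Other motifs were searched in the same peaks. The p53 consensus, a 10-bp motif, was present within 50 bp of 2 of the 8 peaks, beside 3.17% of the list. At the TRAV21 peak it read AGACTTGTCT (chr14:22520628-22520637), and its first 3 bases were the last of the 54-bp run, so the repeat and the consensus overlapped. The end of this match was 136 bp before the start of TRAV21. The study looked for the p53 motif around peaks of its HCT116 p53+/+ data and picked TRAV21 at random among genes with both sites. The match is therefore not independent of that choice. In the HCT116 p53+/+ list used here, the nearest peak was 610 kb from TRAV21. By the study's ChIP followed by PCR, p53 was bound and SMAR1 diminished at TRAV21 in HCT116 p53+/+, and SMAR1 was enriched in HCT116 p53-/-. The study also reported that the TRAV21 transcript rose with SMAR1 overexpression and with knockdown in HCT116 p53+/+. In HCT116 p53-/- the transcript fell with overexpression and rose with knockdown. At the weaker AMPH peak the match read AAGCTTGCTT (chr7:38446282-38446291), with its end 17 bp before the peak. The recombination signal heptamer, CACAGTG on either strand, was in 0 of the 8 peaks (1.04% of the list), and TCGCGA, a core associated with SMAR1, which is also named BANP, was in 0 of the 8 (4.53% of the list).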

How the data were processed

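SMAR1 was immunoprecipitated from HCT116 p53+/+ and HCT116 p53-/- cells (1 library each). The authors trimmed single-end reads with cutadapt 1.2.1, aligned them to hg19 with Bowtie2 2.2.1, converted them with SAMtools and called peaks with MACS 1.4.2, filtering on fold enrichment. The lists do not hold that enrichment. The deposited score is that of MACS, with a floor of 50 for a p-value of 1e-05, and is not scaled for depth.

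Peaks were converted to 1-based coordinates and placed by their centre. Segments came from GENCODE 44 on GRCh37, and sequences from GRCh37. Gaps were left out of lengths. Peaks without a complete sequence on an assembled chromosome (117 and 50) were left out of sequence scans. Distances to segments were measured to the segment, and upstream distances from its start to the peak centre. Each peak was named by its nearest segment, the next one on the other side and any gene at its centre. Intervals were exact (95%), and 3 counts were given beside a count of 0. No p-value was computed. Scripts ran in Python 3.11.15 with pysam 0.24.0, numba 0.67.0, scipy 1.17.1, matplotlib 3.10.9, pandas 2.3.3 and numpy 2.4.6, and functions were tested on simulated data. The members and lists were chosen with earlier results of these data known.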

Additional observations from a re-analysis of the deposited data

How the results depend on the processing

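No paired analysis was possible because each cell line had 1 library and no result comes from a test. Counts of peaks per locus moved under the following settings. Without the flanks TRG had 0 HCT116 p53-/- peaks in place of 3, and with flanks of 100 kb it had 1 HCT116 p53+/+ peak in place of 0. With peaks at or above the median score alone, TRB had 0 HCT116 p53-/- peaks in place of 1 and TRG 1 in place of 3. The share of T(C/G) runs under an HCT116 p53-/- peak was 13.6% for runs of at least 20 bp and 0.198% for runs of at least 6 bp, in place of 4.37%. Segments with an HCT116 p53-/- peak numbered 1 within 1 kb upstream and 5 within 5 kb on either side, in place of 2. The p53 consensus lay in 1 peak when no bases were added, in place of 2. With the HCT116 p53-/- list limited to its 5709 highest scores, an alternative chosen after seeing the data, TRA/TRD, TRB and TRG had 3, 1 and 2 peaks. The HCT116 p53-/- density of 4.52 peaks per Mb was 3.40 without flanks, 2.26 with peaks at or above the median score and 3.39 with equal lists, all within its exact interval. The lists hold no reads, so signal below the peak threshold could not be seen, and with 8 peaks and 1 library per cell line the values describe these libraries.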

Other observations

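A group of 8 T cell receptor beta segments lies on chromosome 9, between 33617843 and 33786826, as copies outside the rearranging locus. It was left out of the loci above. This stretch held 1 peak in each library. The HCT116 p53+/+ peak, chr9:33676574-33676648, scored 86.22 and had no T(C/G) run of 6 bp or more. The HCT116 p53-/- peak, chr9:33632472-33632520, scored 65.06 and held a run of 20 bp. The HCT116 p53+/+ list thus had a peak among the chromosome 9 copies and 0 in the 3 loci.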
